A study of Homo sapiens with 12 samples.

Results

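Collagens are the fibrous proteins of the extracellular matrix, each built from 3 alpha chains wound into a triple helix. The human genes carry a type and a chain number in their symbols, and every gene of the deposited count table with a symbol of that form was taken, irrespective of its expression. This gave 44 genes among 59498 gene identifiers: 11 fibrillar collagens, 6 chains of type IV, the network collagen of basement membranes, and 27 others. Poly(A) RNA had been sequenced from SKOV-3, an established cell line from an ovarian adenocarcinoma, in 4 groups of 3 libraries. The resistant knockout group was the cisplatin-resistant line SKOV-3 CDDP in which KDM5A and KDM5B were both knocked out. The resistant group was SKOV-3 CDDP labelled wild type. The parental knockout group was drug-sensitive SKOV-3 with the same double knockout, and the parental group was SKOV-3 labelled wild type and without resistance. KDM5A and KDM5B are demethylases of lysine 4 on histone H3, and the series title links KDM5 proteins to cisplatin resistance. The labels do not say whether a line was a single clone, how the genes were disrupted or at what drug dose resistance was selected. Nor do they say that replicates were grown as separate cultures. The p-values therefore reflect the spread among libraries, and this spread may be technical only.

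Fibrillar collagens (types I, II, III, V, XI, XXIV and XXVII) are secreted as procollagens, trimmed at both ends and assembled into banded fibrils, the main tensile element of stroma. Type IV chains keep their ends and join into sheets under epithelia, where types VII, XV, XVII and XVIII tie cells and basement membrane to the tissue below, and type VI forms beaded filaments between both. In ovarian tumours most fibrillar collagen is laid down by stromal fibroblasts, whereas type IV and its partners are classical products of epithelial cells.

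Total counts ran from 15659352 to 19706754 per library, and replicates differed well beyond sampling noise, with at least 24.1 for chi-square over its degrees of freedom. By that measure resistant library 1 stood at 126.8 and 165.7 from libraries 2 and 3 of its group, which stood at 30.4 from each other. Resistant knockout library 3 stood at 106.5 and 105.0 from libraries 1 and 2 of its group, which stood at 24.1 from each other. KDM5A measured 17.6, 14.8 and 12.0 CPM (scaled counts, corrected for library size) in resistant knockout libraries against 39.9, 39.0 and 33.4 CPM in resistant libraries, and 22.5, 20.9 and 15.6 CPM in parental knockout libraries against 30.9, 41.5 and 39.4 CPM in parental libraries. The edgeR quasi-likelihood test with Benjamini-Hochberg adjustment, used for every adjusted p unless another test is named, gave 0.0524 in resistant cells and 1 in parental cells for that difference, and KDM5B overlapped between knockout and control in both. Library 3 of both parental groups stood apart, with ERBB2, which encodes the HER2 receptor, at 4731 CPM in the parental knockout library and 10141 CPM in the parental library, against at most 2633 CPM elsewhere. Parental knockout library 3 also had the highest mitochondrial share of counts, 16.3%, against 5.34% to 10.7% in the other 11 libraries, and the part of this share in the collagen results was not tested. Of 7 epithelial markers, 6 or 7 reached 1 CPM in every library. In resistant against parental cells EPCAM fell and the keratins KRT8 and KRT18 rose with and without the knockout, KRT7 and ERBB2 fell without the knockout only, and PAX8 and MUC16 did not pass. Summed levels of 8 fibroblast markers other than collagens were 51.0 to 125.4 CPM in resistant knockout libraries, 18.4 to 40.2 in resistant libraries, 4.11 to 20.2 in parental knockout libraries and 3.29 to 7.71 in parental libraries. POSTN, PDGFRA, PDGFRB and ACTA2 rose and DCN fell in resistant against parental cells with and without the knockout. LUM and FAP did not pass without the knockout, and THY1 was too low to test. THY1 stayed at or below 0.345 CPM and FAP at or below 1.44 CPM in every library. Endothelial markers summed to at most 1.67 CPM, and the leukocyte markers PTPRC and CD3E were each at most 0.301 CPM. CD68, a lysosomal protein used as a macrophage marker, was found in every library and fell in resistant against parental cells without the knockout (-2.18 ± 0.49, adjusted p = 0.00601) and with it (-1.44 ± 0.48, adjusted p = 0.044). In bulk libraries fewer cells of a kind and less RNA per cell cannot be told apart, and the part of these markers in the collagen results was not tested.

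Collagen transcripts took 0.976%, 1.018% and 0.569% of all counts in resistant knockout libraries, 0.781%, 0.408% and 0.387% in resistant libraries, 0.211%, 0.249% and 0.413% in parental knockout libraries, and 0.335%, 0.237% and 0.344% in parental libraries. The resistant knockout group had 22 collagens with a mean of at least 10 CPM, the resistant group 17, the parental knockout group 11 and the parental group 10. To compare genes of different length, levels were also divided by exon length (CPM per kb). On that scale the leading collagen differed between the lines and, in the resistant line, between knockout and control. COL1A1 led in every resistant knockout library with 44.1% to 46.8% of the summed collagen level, COL18A1 led in every resistant library with 24.9% to 30.9%, and COL7A1 led in all 6 parental libraries, with 31.3% to 46.2% in the knockout and 24.7% to 50.9% without it. Fibrillar collagens together made up 52.4% to 58.0% of the collagen level in resistant knockout libraries, 23.6% to 33.7% in resistant libraries, 5.4% to 12.1% in parental knockout libraries and 4.1% to 6.3% in parental libraries. These 4 ranges did not overlap between the lines, and in resistant cells they did not overlap between knockout and control. COL1A1 alone made up 77.6% to 84.1% of the fibrillar level in resistant knockout libraries and 40.9% to 54.7% in resistant libraries. Fibrillar shares without COL1A1 were not compared.

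**Figure D1:**
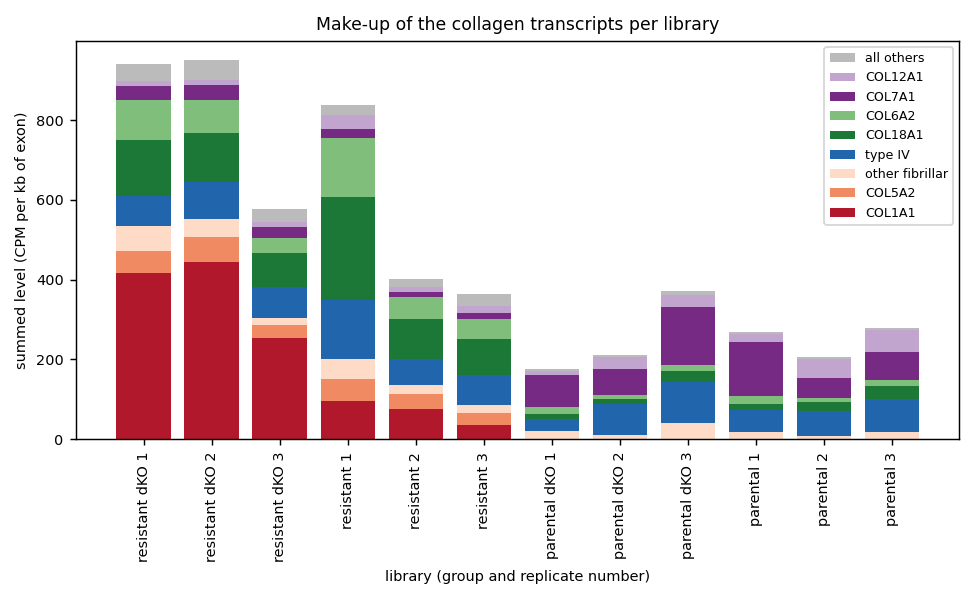
Summed collagen level (CPM per kb of exon) in each of the 12 libraries, stacked by gene or class; libraries are named by group and replicate number. COL1A1 fills the lower part of the bars in the resistant line and is too low to see in parental cells, where COL7A1 and type IV take most of the bar.

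Of the 44 collagens, 30 had enough reads to be tested (9 fibrillar, 5 type IV and 16 others) and 14 were left out by the filter on low counts. In resistant against parental cells 17 of the 30 rose and 3 fell at an adjusted p under 0.05, which is 66.7%, where 28.0% of all 17947 genes tested were called (15.2% higher and 12.8% lower). The median log2 fold change was 2.54 over the 30 collagens and 0.02 over all genes. Among the knockout libraries, which share no library with that comparison, 15 rose and 2 fell, or 56.7% of the 30, where 23.9% of all genes were called (13.6% higher and 10.2% lower), and the median was 1.97 against 0.00 for all genes. All 17 of these were called in the same direction without the knockout, and COL8A2, COL11A2 and COL23A1 were called without the knockout only. The libraries of the groups did not overlap for 17 collagens that were higher and 3 that were lower without the knockout (23.7% and 21.8% of all genes), and for 16 and 2 among the knockouts (20.3% and 16.9% of all genes).

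**Figure D2:**
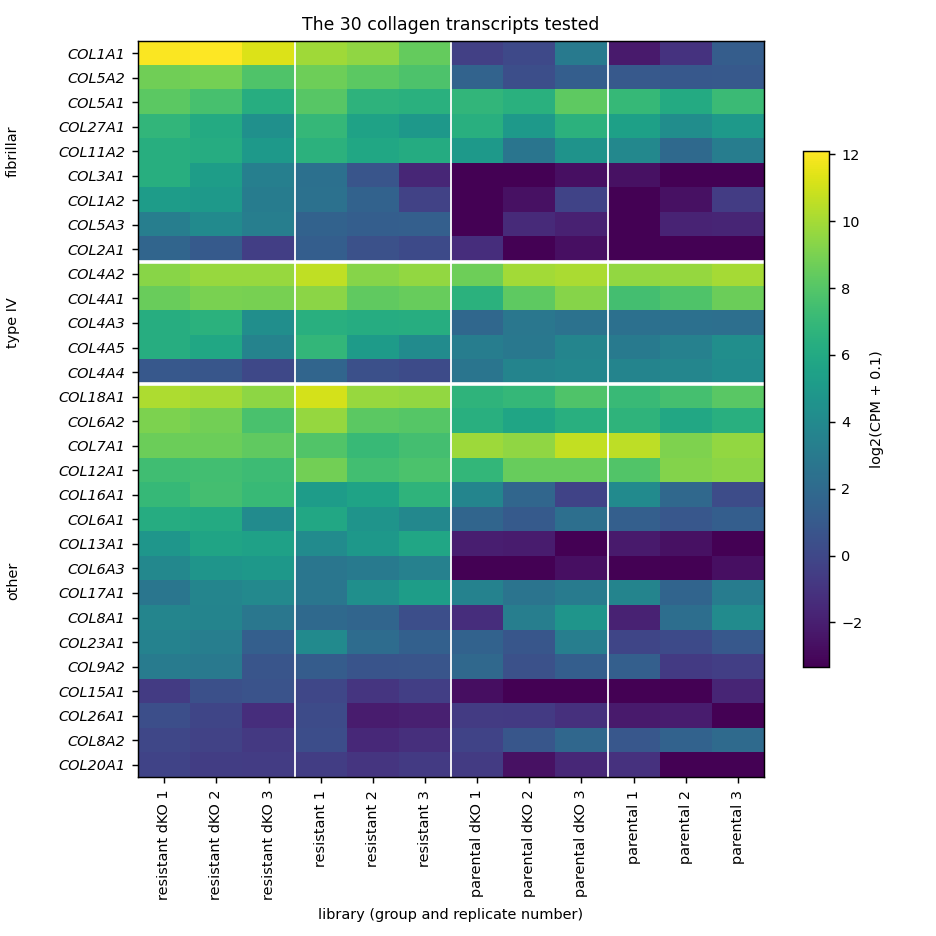
Level of the 30 tested collagens, as log2(CPM + 0.1), in the 12 libraries; rows are grouped into fibrillar, type IV and other collagens, and libraries are named by group and replicate number. COL1A1, COL5A2, COL13A1 and COL6A3 are brighter in the 6 libraries of the resistant line than in the 6 parental libraries. COL4A4 and COL7A1 are darker in the resistant line, but COL7A1 is high in all 12 libraries.

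All 7 fibrillar collagens that were called rose in resistant cells, and no fibrillar collagen fell. COL1A1 (chr17:50183289-50201632, GRCh38), which encodes the alpha 1 chain of type I collagen, had 4082, 4372 and 2499 CPM in resistant knockout libraries and 939, 729 and 345 CPM in resistant libraries. It had 0.651, 0.968 and 8.22 CPM in parental knockout libraries and 0.119, 0.384 and 2.28 CPM in parental libraries. The lines did not overlap, and library 3 was the highest of both parental groups. The log2 fold change was 9.45 ± 1.24 (SE; adjusted p = 0.000183) in resistant against parental cells and 10.12 ± 1.25 (adjusted p = 0.000161) among knockouts. Without parental library 3 the value was 11.33, and without parental knockout library 3 the value among knockouts was 12.13. COL1A2 (chr7:94394561-94431232), the alpha 2 chain of the same trimer, was far scarcer, at 36.0, 31.3 and 8.83 CPM in resistant knockout libraries and 5.37, 2.80 and 0.736 CPM in resistant libraries. It had 0, 0.065 and 0.747 CPM in parental knockout libraries and 0, 0.064 and 0.569 CPM in parental libraries. It rose by 6.53 ± 1.23 (adjusted p = 0.00269) among knockouts and by 3.69 ± 1.17 (adjusted p = 0.0326) without the knockout. That last call was lost without parental library 1 or 2 or resistant library 1 or 2 (adjusted p 0.0624 to 0.109), and the value was 6.25 without parental library 3 and 2.94 without resistant library 1. Among knockouts it was 5.89 on leaving out parental knockout library 1 and 9.47 on leaving out library 3 of that group. Type I collagen is usually a heterotrimer of both chains, and a trimer of the alpha 1 chain alone is also known. Per kb of exon the COL1A1 level was 129, 159 and 321 times that of COL1A2 in resistant knockout libraries and 199, 296 and 533 times in resistant libraries.

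COL3A1 (chr2:188974320-189012746), whose homotrimer is found with type I in stretchable tissues, had 80.1, 37.5 and 9.88 CPM in resistant knockout libraries and 5.02, 1.58 and 0.210 CPM in resistant libraries. Only 1 read of it was counted over the 3 parental knockout libraries and 1 over the 3 parental libraries. The ratio was 2380 (95% exact counting interval 428 to 94200; adjusted p = 0.000304) among knockouts and 114 (20.1 to 4540; adjusted p = 0.0068) in resistant against parental cells. These intervals cover counting error only. The fitted log2 fold change of 10.67 among knockouts was 12.55 without parental knockout library 3 and 9.79 without resistant knockout library 1, and the 6.42 without the knockout was 8.31 without parental library 1 and 5.07 without resistant library 1. COL2A1 (chr12:47972965-48004554), the cartilage collagen, had 3.12, 1.94 and 0.618 CPM in resistant knockout libraries, 2.34, 1.34 and 0.999 CPM in resistant libraries, and 0.301, 0 and 0.057 CPM in parental knockout libraries, with no reads in parental libraries. It was at least 26.5-fold higher in resistant than in parental cells, taking 3 counts over the 3 parental libraries as the limit (adjusted p = 0.00286). Among knockouts its log2 fold change was 3.83 ± 0.93 (adjusted p = 0.0135), and it was 5.65 without parental knockout library 1. Without resistant knockout library 1 it was 3.22, with an adjusted p of 0.0558.

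Type V collagen nucleates type I fibrils and sets their width, and its 3 chains differed from one another. COL5A2 (chr2:189031896-189225312), which lies 19149 bases from COL3A1 on the opposite strand, had 423, 463 and 232 CPM in resistant knockout libraries and 416, 296 and 218 CPM in resistant libraries. It had 2.91, 1.23 and 2.36 CPM in parental knockout libraries and 1.85, 1.79 and 1.92 CPM in parental libraries. It had the smallest p among collagens in both comparisons of the lines, with log2 fold changes of 7.38 ± 0.47 (adjusted p = 1.02e-06) without the knockout and 7.42 ± 0.46 (adjusted p = 2.07e-06) with it. COL5A1 (chr9:134641774-134844843), its partner in the usual trimer, was present in every library and overlapped between all groups. It had 290, 197 and 76.4 CPM in resistant knockout libraries and 275, 98.3 and 88.9 CPM in resistant libraries. It had 112, 87.8 and 306 CPM in parental knockout libraries and 126, 68.3 and 143 CPM in parental libraries, and its log2 fold change of 0.46 ± 0.59 did not pass (adjusted p = 0.597). Per kb of exon, COL5A1 stood at 0.219 to 0.456 times COL5A2 in resistant knockout libraries and 0.221 to 0.441 times in resistant libraries, against 25.8 to 86.6 times in parental knockout libraries and 25.4 to 49.6 times in parental libraries. COL5A3 (chr19:9959561-10010471), a minor chain of the type, had 9.55, 16.2 and 9.63 CPM in resistant knockout libraries, 2.80, 2.31 and 2.47 CPM in resistant libraries, and at most 0.258 CPM in any parental library. It rose by 4.16 ± 0.78 (adjusted p = 0.00203) without the knockout and by 6.36 ± 0.81 (adjusted p = 0.000193) among knockouts, where it was 5.72 on leaving out parental knockout library 1 and 7.05 on leaving out library 2 of that group.

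Type XI collagen is the cartilage counterpart of type V. COL11A2 (chr6:33162681-33192499) had 81.1, 75.0 and 32.0 CPM in resistant knockout libraries and 97.5, 57.3 and 71.6 CPM in resistant libraries. It had 31.9, 6.26 and 23.7 CPM in parental knockout libraries and 14.4, 3.78 and 9.27 CPM in parental libraries. It rose by 3.04 ± 0.61 (adjusted p = 0.00304) without the knockout, and the 1.60 ± 0.57 among knockouts did not pass (adjusted p = 0.0586). That difference did pass in DESeq2 (adjusted p = 0.0225), with the replicate number as a block over both lines (1.83 ± 0.50, adjusted p = 0.0205), with no filter beyond 1 count (adjusted p = 0.00012) and on leaving out parental library 2, parental knockout library 1 or resistant knockout library 3 (adjusted p 0.035 to 0.048). Its partner COL11A1 was too low to test, with at most 0.736 CPM in any library. COL27A1 (chr9:114155560-114312511), a fibrillar collagen with a short helix, overlapped between all groups, at 113, 68.0 and 21.4 CPM in resistant knockout libraries and 121, 47.0 and 29.4 CPM in resistant libraries. It had 83.3, 30.7 and 96.4 CPM in parental knockout libraries and 43.9, 18.5 and 31.6 CPM in parental libraries. COL24A1 was not tested and reached at most 0.651 CPM.

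**Figure D3:**
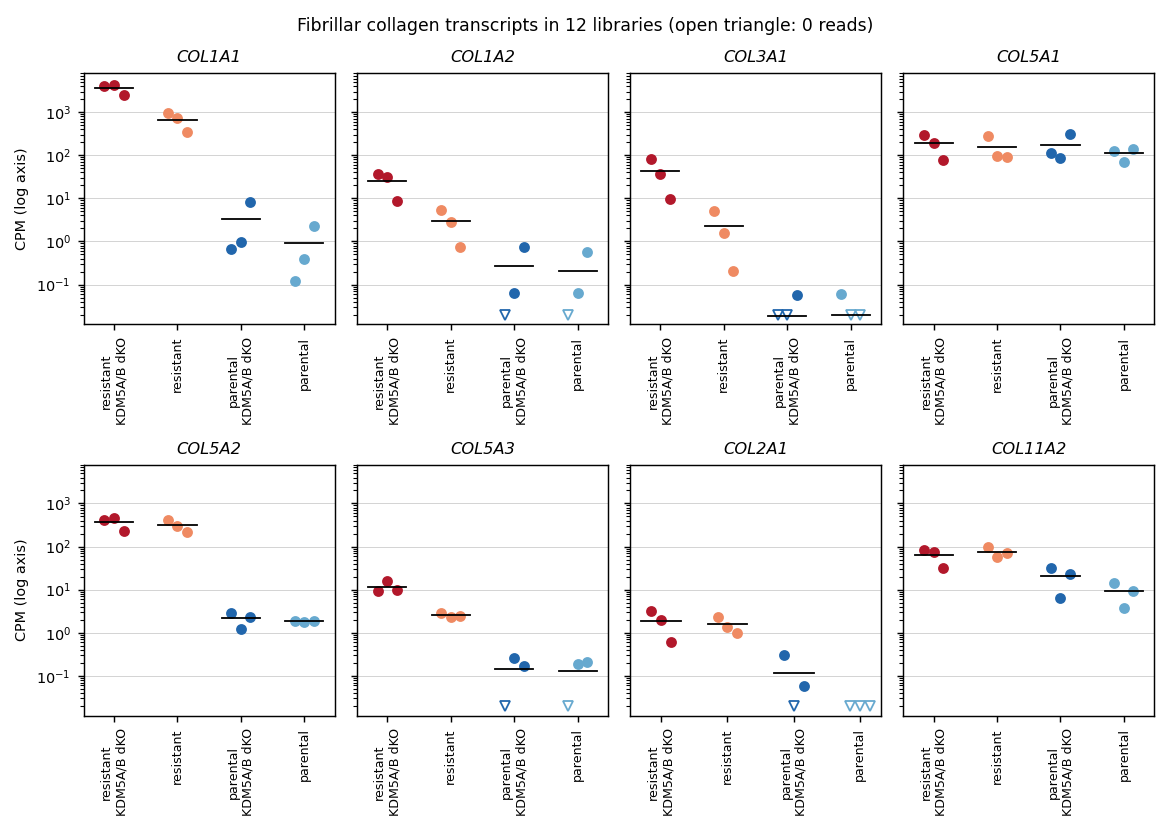
CPM on a log axis of 8 fibrillar collagens in the 12 libraries; points are libraries, bars are group means over 3 libraries, and open triangles mark libraries with 0 reads. COL1A1, COL1A2, COL3A1 and COL5A3 have their highest group mean in the resistant knockout group, then in the resistant group, and lie lowest in both parental groups, COL5A2 is level within each line, and COL5A1 is similar in all groups.

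The type IV chains come in head-to-head gene pairs that share a start region, and the pairs behaved differently. COL4A3 rose and COL4A4 fell, although their start sites in RefSeq (GRCh38.p14) lie 419 bases apart on opposite strands. COL4A1 and COL4A2, with RefSeq start sites 127 bases apart, did not pass in either comparison of the lines. In GENCODE, which gave the gene bodies, the gap is 111 bases for the first pair and -1422 bases, an overlap, for the second. The promoter windows of these 4 genes, 250 bases before to 50 bases after each start and read on the strand of the gene, are printed from RefSeq, since a gene pair that shares a start region changed in opposite directions and another did not pass. Capitals mark the stretch that also lies in the window of the partner gene, 82 bases for the first pair and 226 bases for the second. COL4A3 is at chr2:227164374-227164673 (plus strand), COL4A4 at chr2:227164156-227164455 (minus strand), COL4A1 at chr13:110307108-110307407 (minus strand) and COL4A2 at chr13:110307034-110307333 (plus strand).
COL4A3: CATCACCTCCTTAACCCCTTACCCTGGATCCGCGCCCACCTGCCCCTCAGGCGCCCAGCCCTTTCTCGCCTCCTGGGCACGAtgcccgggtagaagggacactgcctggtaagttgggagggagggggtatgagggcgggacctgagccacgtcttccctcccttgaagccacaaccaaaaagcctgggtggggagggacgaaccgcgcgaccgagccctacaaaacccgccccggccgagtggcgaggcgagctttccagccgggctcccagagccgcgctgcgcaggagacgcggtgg
COL4A4: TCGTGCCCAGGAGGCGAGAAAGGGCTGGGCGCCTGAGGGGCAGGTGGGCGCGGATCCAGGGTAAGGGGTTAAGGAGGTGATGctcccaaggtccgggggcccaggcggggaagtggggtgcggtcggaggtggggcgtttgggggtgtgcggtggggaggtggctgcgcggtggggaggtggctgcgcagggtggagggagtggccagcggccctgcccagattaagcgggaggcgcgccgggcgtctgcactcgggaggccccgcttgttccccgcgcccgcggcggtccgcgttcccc
COL4A1: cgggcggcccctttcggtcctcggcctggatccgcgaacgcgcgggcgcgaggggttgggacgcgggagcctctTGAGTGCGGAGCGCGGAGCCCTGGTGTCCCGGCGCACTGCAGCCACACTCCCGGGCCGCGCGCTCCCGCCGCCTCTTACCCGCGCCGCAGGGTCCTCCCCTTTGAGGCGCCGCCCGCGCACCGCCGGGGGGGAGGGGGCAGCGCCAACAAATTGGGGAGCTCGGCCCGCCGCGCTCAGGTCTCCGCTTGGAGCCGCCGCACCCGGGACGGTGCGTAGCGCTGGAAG
COL4A2: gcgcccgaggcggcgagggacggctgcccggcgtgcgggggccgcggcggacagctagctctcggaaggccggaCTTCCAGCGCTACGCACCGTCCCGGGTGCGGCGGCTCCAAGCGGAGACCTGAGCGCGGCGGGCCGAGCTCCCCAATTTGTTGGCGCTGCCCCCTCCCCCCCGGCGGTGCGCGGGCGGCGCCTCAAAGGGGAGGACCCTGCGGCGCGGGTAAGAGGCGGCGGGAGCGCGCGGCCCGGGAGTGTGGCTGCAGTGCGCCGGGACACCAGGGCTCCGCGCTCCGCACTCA
The letters CCAAT, searched on both strands, were found in the windows of COL4A1 and COL4A2, as in 34.6% of all 35116 windows of that length, and not in those of COL4A3 and COL4A4. GGGCGG, the GC box, was found in 3 of the 4 windows and not in that of COL4A4, against 45.0% of all windows. TATAAA was found in none of the 4, against 11.5%. The windows, their shared stretches and the letters found depend on the RefSeq start sites, and windows from GENCODE starts were not tested. The COL4A4 window lies almost wholly, and the COL4A2 window wholly, within the GENCODE gene body.

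COL4A3 (gene body chr2:227164565-227314792) had 77.1, 91.9 and 19.8 CPM in resistant knockout libraries and 85.6, 73.7 and 77.1 CPM in resistant libraries. It had 3.51, 6.91 and 5.57 CPM in parental knockout libraries and 5.08, 5.12 and 4.82 CPM in parental libraries. COL4A4 (gene body chr2:227002711-227164453) had 1.83, 1.66 and 0.926 CPM in resistant knockout libraries and 3.15, 1.28 and 1.05 CPM in resistant libraries. It had 6.16, 12.3 and 13.9 CPM in parental knockout libraries and 12.2, 13.2 and 18.0 CPM in parental libraries. Each gene separated the lines completely, in opposite directions. The log2 fold change of COL4A3 was 3.97 ± 0.49 (adjusted p = 0.000108) without the knockout and 3.56 ± 0.48 (adjusted p = 0.000279) with it, and that of COL4A4 was -2.98 ± 0.49 (adjusted p = 0.000961) and -2.86 ± 0.49 (adjusted p = 0.00156). Without resistant library 1 the COL4A4 value was -3.63. The level of COL4A3 per kb of exon was 23.6 to 61.1 times that of COL4A4 in resistant knockout libraries and 30.0 to 81.0 times in resistant libraries, but 0.443 to 0.629 times in parental knockout libraries and 0.295 to 0.460 times in parental libraries. An antisense transcript that overlaps COL4A3 exons, AC097662.1, had 14 to 62 counts per library, and the strand setting of the counting is not given in the sources used here. The chains of COL4A3 and COL4A4 join that of COL4A5 in the trimer of the kidney filter, lung and inner ear, whose loss causes Alport syndrome.

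COL4A5 (chrX:108439844-108697545) had 78.9, 57.2 and 11.6 CPM in resistant knockout libraries and 116, 35.3 and 17.1 CPM in resistant libraries. It had 9.12, 7.16 and 12.9 CPM in parental knockout libraries and 7.83, 10.9 and 19.6 CPM in parental libraries. It was called higher by 2.14 ± 0.72 (adjusted p = 0.0419) without the knockout and by 2.34 ± 0.73 (adjusted p = 0.0334) with it, but library 3 of each resistant group lay within the parental range. The call without the knockout was lost on leaving out parental library 1 or 2, resistant library 1 or 2, or resistant knockout library 2 (adjusted p 0.0516 to 0.27), with a value of 1.04 without resistant library 1. The call among knockouts was lost on leaving out library 1 or 2 of either group (adjusted p 0.0854 to 0.127). COL4A6, its head-to-head partner, whose gene body in GENCODE lies 346 bases away, was not tested, at 0.941 CPM or less in every library.

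COL4A1 (chr13:110148963-110307233) and COL4A2 (chr13:110305812-110513209), which make up the trimer of nearly all basement membranes, were per kb of exon the most abundant type IV chains in each group. COL4A1 had 375, 509 and 494 CPM in resistant knockout libraries and 678, 322 and 360 CPM in resistant libraries. It had 93.3, 310 and 634 CPM in parental knockout libraries and 177, 232 and 389 CPM in parental libraries. COL4A2 had 668, 830 and 832 CPM in resistant knockout libraries and 1596, 620 and 758 CPM in resistant libraries. It had 421, 1008 and 1128 CPM in parental knockout libraries and 784, 823 and 1020 CPM in parental libraries. All 4 groups overlapped for both genes. Their log2 fold changes in resistant against parental cells were 0.77 ± 0.55 (adjusted p = 0.317) and 0.18 ± 0.41 (adjusted p = 0.777).

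**Figure D4:**
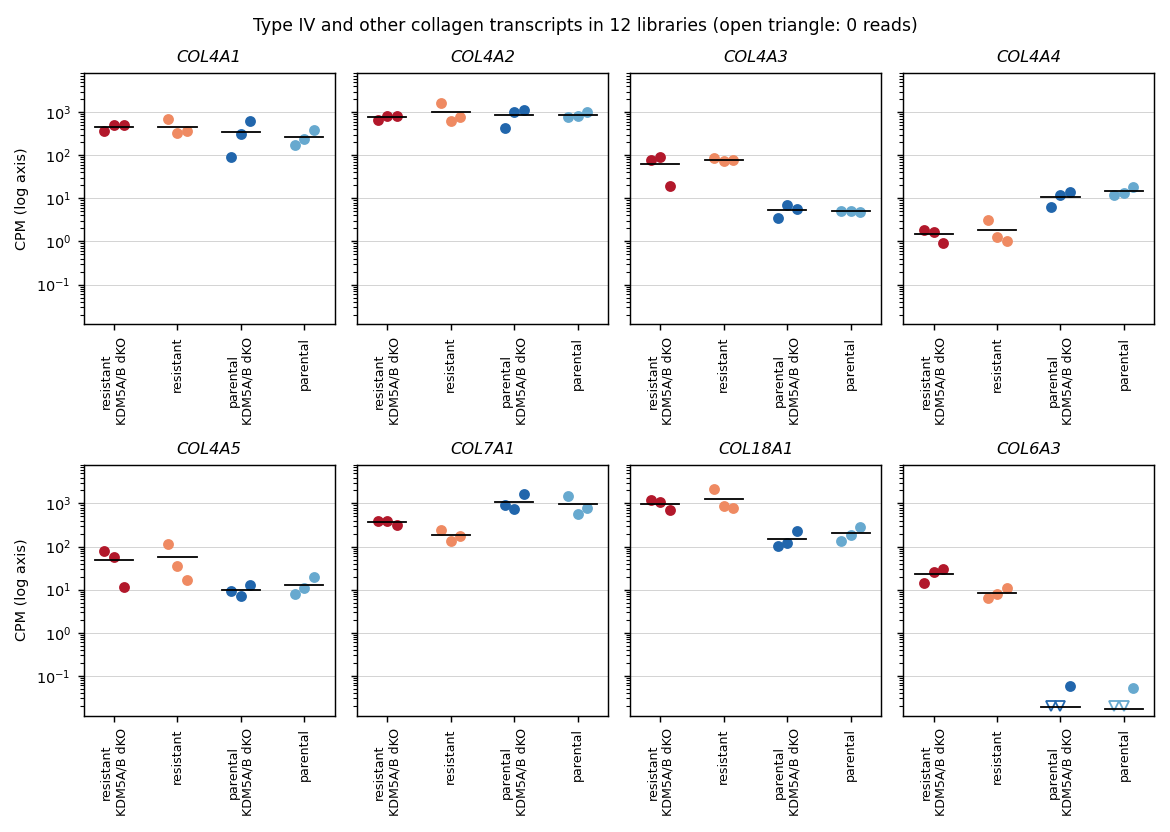
CPM on a log axis of 5 type IV chains and of COL7A1, COL18A1 and COL6A3 in the 12 libraries; points are libraries, bars are group means over 3 libraries, and open triangles mark libraries with 0 reads. COL4A3 is higher and COL4A4 lower in both resistant groups than in both parental groups, and COL4A1 and COL4A2 overlap throughout.

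COL7A1 and COL18A1, both of the basement membrane zone, moved in opposite directions. COL7A1 (chr3:48564073-48595267), the collagen of anchoring fibrils, had 396, 394 and 318 CPM in resistant knockout libraries and 240, 133 and 176 CPM in resistant libraries. It had 899, 729 and 1620 CPM in parental knockout libraries and 1512, 559 and 780 CPM in parental libraries. It fell by 2.37 on the log2 scale (SE 0.43; adjusted p = 0.00165) in resistant against parental cells, and the change among knockouts was -1.55 ± 0.42 (adjusted p = 0.0173). The second call was lost without parental knockout library 3 (adjusted p = 0.0555), resistant knockout library 1 (0.0511) or resistant knockout library 2 (0.0521). COL18A1 (chr21:45405137-45513720), the multiplexin from which endostatin is cut, had 1198, 1054 and 718 CPM in resistant knockout libraries and 2209, 856 and 786 CPM in resistant libraries. It had 105, 122 and 230 CPM in parental knockout libraries and 138, 189 and 279 CPM in parental libraries. It rose by 2.67 ± 0.48 (adjusted p = 0.00166) without the knockout and by 2.70 ± 0.48 (adjusted p = 0.00188) with it, and the first value was 2.02 without resistant library 1. SLC19A1 overlaps it on the opposite strand and had 379 to 1492 counts per library. COL15A1 (chr9:98943179-99070792), the other multiplexin, had at most 1.42 CPM in resistant knockout libraries and 0.876 CPM in resistant libraries, with 1 read over the parental knockout libraries and 4 over the parental libraries. Its ratio among knockouts was 55.3 (95% exact counting interval 9.54 to 2220; adjusted p = 0.00442), and the fitted log2 value of 5.39 was 7.22 without parental knockout library 1. The 2.99 ± 0.95 without the knockout (adjusted p = 0.0325) was 6.50 without parental library 3. It lost its call without parental library 1 or 2, any 1 of the 3 resistant libraries, or resistant knockout library 2 (adjusted p 0.0512 to 0.108).

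The 3 main chains of type VI, the beaded filament collagen, all rose in both comparisons of the lines. COL6A1 (chr21:45981737-46005050) had 75.1, 68.2 and 17.0 CPM in resistant knockout libraries and 60.1, 24.7 and 14.5 CPM in resistant libraries. It had 3.11, 2.00 and 4.83 CPM in parental knockout libraries and 2.39, 1.73 and 2.33 CPM in parental libraries. COL6A2 (chr21:46098097-46132849), 93046 bases downstream, had 534, 451 and 204 CPM in resistant knockout libraries and 792, 298 and 261 CPM in resistant libraries. It had 85.5, 52.3 and 83.3 CPM in parental knockout libraries and 104, 61.7 and 85.2 CPM in parental libraries. Neither gene overlapped between the lines. COL6A3 (chr2:237324003-237414375) had 14.3, 25.7 and 29.5 CPM in resistant knockout libraries and 6.54, 7.92 and 11.0 CPM in resistant libraries, and only 1 read over the parental knockout libraries and 1 over the parental libraries. Log2 fold changes were 3.94 ± 0.64 (adjusted p = 0.000859) and 4.01 ± 0.64 (adjusted p = 0.000892) for COL6A1, without and with the knockout, and 2.43 ± 0.48 (adjusted p = 0.00285) and 2.43 ± 0.48 (adjusted p = 0.00341) for COL6A2. Without resistant library 1 the first values were 3.18 and 1.74. The ratio of COL6A3 was 444 (95% exact counting interval 79.3 to 17600; adjusted p = 1.06e-05) without the knockout and 1190 (214 to 47200; adjusted p = 6.04e-06) with it, and its fitted log2 values of 8.34 and 9.80 were 10.22 without parental library 3 and 11.67 without parental knockout library 3. Per kb of exon COL6A2 exceeded COL6A1 in every library, by 6.56 to 11.8 times in resistant knockout libraries, 12.0 to 17.8 times in resistant libraries, 17.1 to 27.3 times in parental knockout libraries and 35.4 to 43.1 times in parental libraries. COL6A5 and COL6A6 were not tested, with at most 0.350 CPM in any library.

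Transmembrane and fibril-associated collagens made up most of the remaining changes. COL13A1 (chr10:69801867-69964275), a transmembrane collagen of cell adhesions, had 27.7, 51.6 and 45.1 CPM in resistant knockout libraries, 17.6, 29.9 and 55.5 CPM in resistant libraries, and at most 0.150 CPM in any parental library. The ratio was 605 (95% exact counting interval 207 to 2940; adjusted p = 8.09e-06) without the knockout, and the log2 fold change among knockouts was 8.68 ± 0.74 (adjusted p = 1.18e-05). The fitted log2 value of 9.03 without the knockout was 9.91 without parental library 1 and 8.41 without parental library 3. COL16A1 (chr1:31652247-31704319), a fibril-associated collagen, had 128, 178 and 136 CPM in resistant knockout libraries and 37.4, 48.6 and 105 CPM in resistant libraries. It had 12.6, 3.29 and 0.747 CPM in parental knockout libraries and 16.3, 3.65 and 1.09 CPM in parental libraries. It rose by 4.72 ± 1.01 (adjusted p = 0.00538) among knockouts, and by 6.17 without parental knockout library 1. The 3.19 ± 0.94 without the knockout (adjusted p = 0.0241) was 4.76 without parental library 1 and lost its call without parental library 2 or 3 or resistant library 3 (adjusted p 0.0561 to 0.0914). COL23A1 (chr5:178237618-178590555), also transmembrane, had 11.4, 9.64 and 2.47 CPM in resistant knockout libraries and 16.3, 4.26 and 2.52 CPM in resistant libraries. It had 2.81, 1.61 and 9.65 CPM in parental knockout libraries and 0.836, 1.02 and 1.76 CPM in parental libraries. Its log2 fold change was 2.66 ± 0.85 without the knockout (adjusted p = 0.0333), lost without parental library 1 or 2 or resistant library 1 (adjusted p 0.0992 to 0.2; 1.48 without the last), and 0.74 ± 0.79 with it (adjusted p = 0.527). COL17A1, the transmembrane collagen of hemidesmosomes, had 6.48, 12.7 and 15.5 CPM in resistant knockout libraries and 6.65, 20.5 and 38.7 CPM in resistant libraries. It had 11.4, 6.07 and 8.45 CPM in parental knockout libraries and 12.3, 3.01 and 8.70 CPM in parental libraries. Its 1.45 ± 0.61 did not pass (adjusted p = 0.0922), but did in DESeq2 (adjusted p = 0.0459) and without resistant library 1 (adjusted p = 0.0294). COL12A1, a fibril-associated collagen with many fibronectin domains, had 168, 175 and 153 CPM in resistant knockout libraries and 450, 172 and 214 CPM in resistant libraries. It had 118, 362 and 360 CPM in parental knockout libraries and 238, 604 and 685 CPM in parental libraries. Its log2 fold change in resistant against parental cells was -0.87 ± 0.49 (adjusted p = 0.207).

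Type VIII collagen forms hexagonal networks, for example in the cornea and vessel wall. COL8A2 (chr1:36095236-36125220) was the last of the 3 collagens that fell, at 0.891, 0.720 and 0.494 CPM in resistant knockout libraries and 1.17, 0.244 and 0.315 CPM in resistant libraries. It had 0.752, 1.68 and 3.39 CPM in parental knockout libraries and 1.73, 2.82 and 3.99 CPM in parental libraries. The change was -2.30 ± 0.69 without the knockout (adjusted p = 0.0256) and -1.45 ± 0.67 with it (adjusted p = 0.136). The first was lost without parental library 2 or 3 or resistant library 2 or 3 (adjusted p 0.0577 to 0.0966), and was -3.31 without resistant library 1. Its partner COL8A1 (chr3:99638475-99799226) varied within the parental groups more than between the lines. It had 12.7, 12.2 and 6.86 CPM in resistant knockout libraries and 3.79, 3.11 and 1.21 CPM in resistant libraries. It had 0.301, 9.55 and 26.1 CPM in parental knockout libraries and 0.179, 4.61 and 17.2 CPM in parental libraries, so that the parental libraries numbered 3 were the highest of all 12. The log2 fold change of -1.44 ± 1.21 in resistant against parental cells (adjusted p = 0.402) was 0.16 without parental library 3. COL9A2, the only type IX chain tested, and COL20A1 and COL26A1 were low, with group means of at most 5.83, 0.636 and 0.776 CPM, and none was called. The 14 untested collagens were COL4A6, COL6A5, COL6A6, COL9A1, COL9A3, COL10A1, COL11A1, COL14A1, COL19A1, COL21A1, COL22A1, COL24A1, COL25A1 and COL28A1, and their highest level in any library was 1.34 CPM, for COL28A1.

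**Figure D5:**
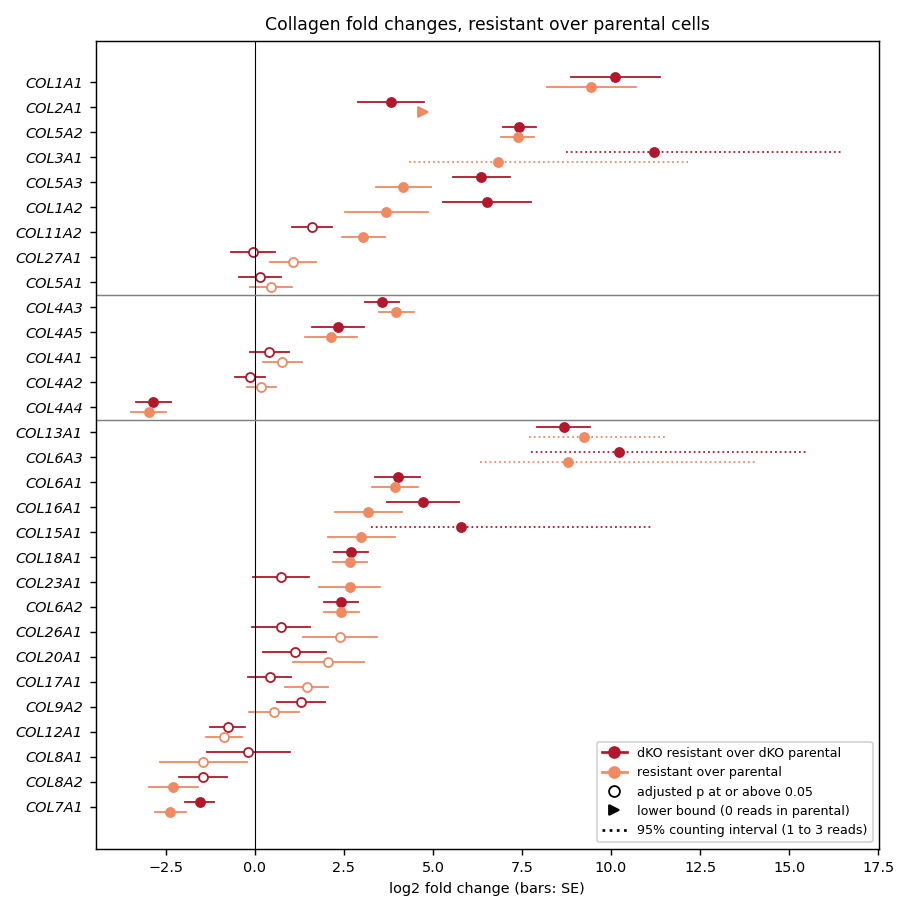
Log2 fold change of the 30 tested collagens in resistant over parental cells, with the knockout in both (upper point of each pair) and without it (lower point); bars are SE, dotted bars are 95% exact counting intervals where a group had 1 to 3 reads, the triangle is a lower bound, and open points did not pass. Filled points lie to the right except for COL4A4, COL7A1 and COL8A2, and the 2 points of a gene lie on the same side wherever both are filled.

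In the main fit, which had no replicate block, no collagen was called for the double knockout at an adjusted p under 0.05 in either line. With the replicate number as a block in each line, 2 of the 30 were called in parental cells and 7 in resistant cells. In parental cells every library of the knockout was above every control library for COL26A1 and below for none, where 3.20% of all genes were above and 3.38% below. There edgeR called 0 of the 30, as of all genes (0%), with 3 at an unadjusted p under 0.05 (COL2A1, COL23A1 and COL26A1, all with a higher mean in the knockout), against 3.00% of all genes. DESeq2 called 0 of the 30, against 0.0614% of all genes. The labels do not state that replicate numbers pair libraries, but same-numbered parental libraries deviated together in these counts and were taken as pairs. A fit with the number as a block in each line, the resistant line included, called 0.858% of all genes for the parental knockout. It called COL1A1 (1.80 ± 0.40, adjusted p = 0.0492) and COL27A1 (1.09 ± 0.22, adjusted p = 0.0361) higher there. Without the block these values were 1.78 ± 0.97 and 1.16 ± 0.64, each with an adjusted p of 1. COL1A1 was higher in the knockout library of all 3 pairs, but its counts were low. It had 13, 15 and 143 reads in parental knockout libraries against 2, 6 and 44 in parental libraries. The unblocked value was -0.25 without parental knockout library 3, which keeps the parental library 3 of that pair, and 1.67 ± 0.74 without both (adjusted p = 1). In resistant cells edgeR called 0 of the 30, against 0.212% of all genes, all of them higher in the knockout. With the block in each line edgeR called 7 of the 30 higher there, where it called 939 of all 17947 genes. These were COL1A1, COL1A2, COL3A1, COL5A3, COL6A3, COL8A1 and COL16A1 (adjusted p 6.07e-06 to 0.00627). The correlations of same-numbered resistant libraries (0.569, -0.186 and 0.639) do not settle whether these numbers pair libraries. Of the 30, 7 had an unadjusted p under 0.05, each with a higher mean in the knockout (COL1A1, COL1A2, COL3A1, COL5A3, COL6A3, COL7A1 and COL9A2), where 7.95% of all genes had one. DESeq2 called 2 of them, COL5A3 (2.22, adjusted p = 0.000109) and COL6A3 (1.44, adjusted p = 0.0438), where it called 1.39% of all genes.

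For 8 of the 30 collagens (26.7%) every resistant knockout library was above every resistant library, against 8.02% of all genes, and for none was every one below (7.17% of all genes). These 8 were COL1A1, COL1A2, COL3A1, COL5A3, COL6A3, COL7A1, COL8A1 and COL16A1, and 4 of them are fibrillar. COL3A1 averaged 42.5 ± 35.4 CPM in resistant knockout libraries and 2.27 ± 2.48 CPM in resistant libraries (SD, n = 3 each), with a log2 fold change of 4.23 ± 0.93 (adjusted p = 0.112). COL1A1 averaged 3651 ± 1008 CPM in resistant knockout libraries and 671 ± 301 CPM in resistant libraries (2.44 ± 0.89, adjusted p = 0.471). For COL1A2 the log2 fold change was 3.10 ± 1.00 (adjusted p = 0.386), for COL5A3 2.22 ± 0.62 (adjusted p = 0.255), for COL6A3 1.44 ± 0.44 (adjusted p = 0.325) and for COL7A1 1.01 ± 0.41 (adjusted p = 0.548). The partner chains COL5A2 and COL6A2 had 0.27 ± 0.35 (adjusted p = 0.929) and -0.19 ± 0.46 (adjusted p = 0.971). The summed fibrillar level was 536, 552 and 303 CPM per kb in resistant knockout libraries and 201, 136 and 85.8 CPM per kb in resistant libraries. COL1A1 alone made up 77.6%, 80.7% and 84.1% of that sum in resistant knockout libraries and 47.5%, 54.7% and 40.9% in resistant libraries. The sum without COL1A1 was not compared. None of the 7 tested fibroblast markers was called for the knockout in resistant cells. POSTN, with 42.9, 88.8 and 32.7 CPM in resistant knockout libraries against 5.20, 16.2 and 6.20 CPM in resistant libraries, LUM, with 20.0, 20.9 and 5.74 CPM in resistant knockout libraries against 2.74, 1.65 and 0.210 CPM in resistant libraries, and PDGFRB (log2 fold change 1.54 ± 0.66, adjusted p = 0.579) were above every control library. The other 4 overlapped, with log2 fold changes of 2.89 for DCN, 1.92 for FAP, -0.25 for ACTA2 and -0.78 for PDGFRA, and the part of these markers in the collagen differences was not tested. The difference of the knockout effect between resistant and parental cells was called for 0 of the 30 collagens by edgeR and by DESeq2, with 0 of the 30 at an unadjusted p under 0.05. Of all genes edgeR called 0.0279% and DESeq2 0.374%, and 3.78% had an unadjusted p under 0.05.

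Genes that make, trim and crosslink collagen were counted beside the 28.0% of all genes called without the knockout and the 23.9% among knockouts, and no list was tested against all genes. Of 18 tested genes for prolyl and lysyl hydroxylation and folding, 6 rose and none fell in resistant against parental cells (33.3%), with a median log2 fold change of 1.02, and 3 rose among knockouts (16.7%). P4HA2, a prolyl 4-hydroxylase subunit, averaged 139 ± 43 CPM in resistant knockout libraries, 104 ± 18 in resistant libraries, 21.6 ± 11.7 in parental knockout libraries and 26.6 ± 9.8 in parental libraries (log2 fold change 1.96 ± 0.41, adjusted p = 0.00382, without the knockout). PLOD2, which hydroxylates telopeptide lysines, averaged 101 ± 39 CPM in resistant knockout libraries, 253 ± 164 in resistant libraries, 28.4 ± 15.2 in parental knockout libraries and 28.1 ± 13.3 in parental libraries (3.17 ± 0.56, adjusted p = 0.00145, without the knockout), and P4HA3 rose by 5.38 ± 0.86 (adjusted p = 0.000729). The collagen chaperone SERPINH1 was not called, at 217 to 375 CPM in resistant knockout libraries, 229 to 437 CPM in resistant libraries, 121 to 416 CPM in parental knockout libraries and 124 to 277 CPM in parental libraries. Of 8 genes for propeptide cleavage 4 rose and none fell (50%), and 3 rose among knockouts (37.5%). ADAMTS2, the N-proteinase of types I to III, averaged 68.4 ± 19.1 CPM in resistant knockout libraries, 73.5 ± 43.0 in resistant libraries, 2.77 ± 1.44 in parental knockout libraries and 1.52 ± 0.59 in parental libraries, and rose by 5.59 ± 0.56 (adjusted p = 2.37e-05) without the knockout and 4.61 ± 0.53 (adjusted p = 8.7e-05) with it. Of 5 lysyl oxidases 2 rose in both comparisons (40%). LOXL4 rose by 6.10 ± 0.63 without the knockout (adjusted p = 2.98e-05), and LOXL2, which crosslinks type IV, had 1200, 1224 and 712 CPM in resistant knockout libraries and 2695, 1074 and 722 CPM in resistant libraries. It had 56.4, 195 and 255 CPM in parental knockout libraries and 120, 132 and 203 CPM in parental libraries. Its log2 fold change without the knockout was 3.31 ± 0.60 (adjusted p = 0.00175).

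Export, sensing and transcription of collagen were counted in the same way. Of 5 genes that build large export carriers none was called without the knockout, and SEC23A alone rose among knockouts (1.02 ± 0.26, adjusted p = 0.0127). Of 9 tested receptors 2 rose without the knockout, the integrin chains ITGA10 (3.73 ± 0.87, adjusted p = 0.00738) and ITGB1 (1.38 ± 0.48, adjusted p = 0.0469), and 2 fell, the integrin chain ITGA1 (-3.23 ± 0.75, adjusted p = 0.00707) and OSCAR (-3.82 ± 0.69, adjusted p = 0.00171), which makes 44.4%, while among knockouts ITGA2 rose and OSCAR fell (22.2%). Of 7 tested transcription factors that act on collagen genes, FLI1, a repressor of type I collagen in fibroblasts, rose by 3.37 ± 0.63 (adjusted p = 0.00212) and RUNX2 fell (-1.21 ± 0.37, adjusted p = 0.0272) without the knockout, or 28.6% of the 7. SOX9, the activator of COL2A1 in cartilage, rose by 3.96 ± 0.93 (adjusted p = 0.00894) among knockouts, the only 1 of the 7 called there. None of these companion genes was called for the knockout in either line or for the difference between the lines.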

How the data were processed

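RNA of 12 SKOV-3 libraries in 4 groups of 3 was measured, and groups and replicate numbers come from the sample titles. The authors deposited raw read counts per gene. The submitters' processing notes name STAR 2.7.10a, featureCounts 2.0.1 and Trim Galore 0.6.10, and the build GRCh38, without the order of the steps. Which annotation and strand setting were used, and what became of multi-mapping reads, is not given in the sources used here. Overlapping genes may therefore share reads, and 12 of the 44 collagens share exon positions with another gene. Per the labels' protocols, poly(A) RNA went into a kit that preserves strand. The table had 59542 rows; 44 identifiers stood on 2 rows without reads, and a second deposited copy matched in all 833588 cells. The names of 2 columns had a letter changed, and the remainder of each name assigned them to resistant libraries 2 and 3. Coordinates and exon lengths came from GENCODE 29, with 57380 identifiers and 99.95% of counts matched.

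Low counts were removed with filterByExpr of edgeR 4.0.16 under R 4.3.3, leaving 17947 genes, and TMM factors were applied. A single fit over 12 libraries had a mean for each group. Its 5 contrasts went through edgeR's robust quasi-likelihood test, with Benjamini-Hochberg adjustment over all genes at 0.05. The SE is the absolute log2 fold change over the square root of F. Levels are CPM on the scaled library size, and per kb of union exon length where genes are compared. For a group with 0 reads the fold is a bound against 3 counts over its 3 libraries, and with 1 to 3 reads a ratio with an exact 95% counting interval; both cover counting error only. The fit was tried on simulated counts for resistant against parental cells only, with the same set spread for every gene. That trial does not show how the fit performs at the spread of these libraries. Promoters came from RefSeq (GRCh38.p14), which matched 32 of the 44 collagens. Members, lists and alternatives were chosen with earlier results of these data known. Library values are given for collagens that passed in a contrast or had a group mean of at least 10 CPM, and for their partner chains. Companion genes named passed with at least 1 CPM, and SERPINH1 and the cell-type markers named were added after their values were seen.

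Same-numbered libraries deviated together in the parental groups (correlations 0.658, 0.774 and 0.779), which were taken as pairs, but not in all resistant groups (0.569, -0.186 and 0.639). Alternatives were other scaling, other filters, DESeq2 1.42.0, the 6 libraries compared alone, replicate blocks and leaving out each library; leaving out library 3 of both parental groups was added after the data were seen.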

Additional observations from a re-analysis of the deposited data

How the results depend on the processing

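With all 12 libraries, the collagens called numbered 17 to 23 in resistant against parental cells and 16 to 20 among knockouts, and all calls kept their direction. Between 27 and 44 collagens were tested, and the same settings called 4770 to 6024 and 4095 to 5374 of all genes. Leaving out each library gave 14 to 20 and 14 to 19 of 29 to 32 collagens tested. All genes called then numbered 3081 to 5411 and 2714 to 4696. The knockout in parental cells gave 1 collagen of 44 tested with no filter beyond 1 count (COL1A1, adjusted p = 0.0247), where 83 of all genes were called. It gave 2 of 30 with the replicate block within each line, where 154 of all genes were called. For the knockout in resistant cells there were 5 of 44 tested with no filter (451 of all genes) and 2 of 30 with DESeq2 (249 of all genes). The replicate block over both lines gave 1 of 30 (COL3A1, adjusted p = 0.00424), with 55 of all genes, and the block within each line gave 7 of 30. Without library 3 of both parental groups there was 1 of 32 (COL1A1, adjusted p = 0.041), with 66 of all genes. The cause of these differences was not tested. The block within lines raised the count over all genes to 939, against 38 without a block. By the check of deviations, resistant libraries 1 and 3 correlated best with the same-numbered knockout library (0.569 and 0.639). Resistant library 2 did not (-0.186), and its highest value was 0.141, with knockout library 3. The check therefore does not settle whether the resistant numbers pair libraries. The difference of the knockout effects gave 1 of 30 with the block within lines (COL16A1, 1.67, adjusted p = 0.0492), where 274 of all genes were called. The 3 knockout results gave 0 collagens whichever library was left out. With the replicate block over both lines the calls numbered 17 of 30 in each comparison of the lines, where 5537 and 4789 of all genes were called. COL1A2, COL4A5 and COL23A1 lost their calls without the knockout and COL4A5 lost its call with it, while COL11A2 was newly called among knockouts. Signs turned for 3 collagens that were not called: COL8A1 in resistant against parental cells ran from -2.03 to 0.16 on leaving out a library (0.16 without parental library 3) and was 0.17 without both libraries 3, COL1A1 for the knockout in parental cells ran from -0.25 (without parental knockout library 3) to 3.67, and the difference for COL16A1 ran from -0.11 (without parental library 1) to 3.02. Scaling moved the median of all genes by at most 0.15 on the log2 scale (library size alone, among knockouts, 0.148 against -0.002) and no collagen count. Low counts limit COL2A1, COL3A1, COL5A3, COL6A3, COL13A1 and COL15A1, whose parental groups held 0 to 7 reads each.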

Other observations

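Collagen start regions were described from the RefSeq windows that matched. These were 44 windows of 32 genes, and CCAAT was found in 14 of the 44 windows, against 34.6% of all windows, TATAAA in 8, against 11.5%, and GGGCGG in 24, against 45.0%, each on either strand. The median ratio of observed to expected CpG was 0.584 in collagen windows and 0.579 in all windows. By outcome in resistant against parental cells the median was again taken over windows, so a gene with several windows counted several times. It was 0.607 for the windows of 11 collagens that rose and 0.789 for those of the 3 that fell. It was 0.877 for those of 8 tested and not called, and 0.42 for those of 10 that were too low to test. COL1A1, COL1A2, COL2A1, COL3A1, COL5A2 and COL6A1 also rose but had no window. These medians are descriptions of small sets and were not tested.

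Some collagen genes lie near another collagen gene, and genes of other kinds between them were not considered. COL18A1, COL6A1 and COL6A2 lie in this order and the same orientation on chromosome 21, with 468016 and 93046 bases between them. All 3 rose in both comparisons of the lines. COL3A1 and COL5A2, 19149 bases apart on chromosome 2, also both rose. In resistant cells, however, COL3A1 had a log2 fold change of 4.23 ± 0.93 (edgeR adjusted p = 0.112) for the knockout and COL5A2 one of 0.27 ± 0.35 (adjusted p = 0.929). Other near pairs did not both rise. COL4A3 and COL4A4 changed in opposite directions, and COL4A1 and COL4A2 did not pass. Each remaining pair held a gene too low to test.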
